A study of Mus musculus with 16 samples.

Results

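The chloride channel genes examined here are 6 genes of the kidney's chloride pathways, Bsnd, Clcn2, Clcn3, Clcn5, Clcn6 and Cftr, taken by their symbol in the count table, and Clcn4, which the table lists under the symbol Clcn4-2 and which was matched by its Ensembl identifier. These 7 genes are 7 of the 28971 genes of the table. Whole kidney RNA was sequenced from Hes1 conditional knockout mice (Hes1 cKO), which carry Pax8-rtTA, the TRE->Cre transgene and floxed Hes1 alleles (Hes1 f/f), and from control littermates labelled as wild type. All mice of both groups drank doxycycline at 1 mg/mL with 5% sucrose for 1 week from 3 weeks of age, which switches on Cre in cells where Pax8 drives rtTA, known as the epithelium of the kidney tubules, so that Hes1 is not targeted in the other cells of the organ. The libraries compared are 3 of Hes1 cKO and 4 of control. The labels do not say whether a control carries any transgene. The table does not tie a library to a titled mouse, so library numbers are names alone.

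Chloride leaves or enters kidney tubule cells through several unrelated kinds of protein. The CLC family includes channels of the plasma membrane, such as ClC-2, and chloride-proton exchangers of endosomes and lysosomes, such as ClC-3 to ClC-7. Barttin, the product of Bsnd, is an accessory subunit of chloride channels of the basolateral membrane; it is known from the thin and thick ascending limb, the distal convoluted tubule and the intercalated cells of the collecting duct. Cftr is a cAMP-regulated chloride channel of the ABC transporter family, best known from airway, gut and pancreas. Hes1 is a transcriptional repressor downstream of Notch, and the comparison asked which kidney genes differ when it is deleted, in a series on the cell types of the collecting duct.

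Promoters were searched for letters known to be bound by Hes1 and by forkhead factors, and the windows that hold CACGTG or TGTTTA are shown. Hes1 is known to bind the N-box CACNAG and the class C site CACGNG. Its form CACGTG is also the E-box of other basic helix-loop-helix factors, among them the TFE factors of lysosomal genes. The core TGTTTA is bound by forkhead factors, the family of the intercalated cell regulator Foxi1. Windows of 300 bases (250 before to 50 after a start, RefSeq, GRCm38.p6) were found for 6 of the 7 genes, with 9 starts in all, and both strands were searched. Bsnd had no window, so its promoter was not searched. In each line the gene's strand is printed 5′ to 3′, capitals mark CACGTG in Clcn6 and Clcn4 and TGTTTA or its reverse complement in Clcn5.
Clcn6, chr4:148038764-148039063, minus strand: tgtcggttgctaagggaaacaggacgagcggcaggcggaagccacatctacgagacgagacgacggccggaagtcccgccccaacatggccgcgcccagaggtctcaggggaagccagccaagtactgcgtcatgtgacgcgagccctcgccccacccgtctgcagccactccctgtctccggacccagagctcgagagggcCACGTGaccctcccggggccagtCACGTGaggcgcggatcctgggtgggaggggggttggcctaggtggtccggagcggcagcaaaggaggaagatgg
Clcn4, chr7:7299508-7299807, minus strand: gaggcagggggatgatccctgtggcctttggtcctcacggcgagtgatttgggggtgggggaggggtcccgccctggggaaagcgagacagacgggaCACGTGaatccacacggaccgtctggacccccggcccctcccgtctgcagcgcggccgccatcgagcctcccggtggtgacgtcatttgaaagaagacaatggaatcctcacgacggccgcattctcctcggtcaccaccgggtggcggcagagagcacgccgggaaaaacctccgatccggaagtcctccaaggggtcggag
Clcn5, chrX:7319309-7319608, minus strand: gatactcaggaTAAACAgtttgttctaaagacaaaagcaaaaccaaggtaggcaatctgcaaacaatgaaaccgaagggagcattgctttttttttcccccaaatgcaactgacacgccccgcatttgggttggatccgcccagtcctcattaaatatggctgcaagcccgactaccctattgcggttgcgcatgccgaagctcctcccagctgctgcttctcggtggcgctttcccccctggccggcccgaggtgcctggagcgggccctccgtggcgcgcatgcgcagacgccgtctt
Clcn5, second start, chrX:7188665-7188964, minus strand: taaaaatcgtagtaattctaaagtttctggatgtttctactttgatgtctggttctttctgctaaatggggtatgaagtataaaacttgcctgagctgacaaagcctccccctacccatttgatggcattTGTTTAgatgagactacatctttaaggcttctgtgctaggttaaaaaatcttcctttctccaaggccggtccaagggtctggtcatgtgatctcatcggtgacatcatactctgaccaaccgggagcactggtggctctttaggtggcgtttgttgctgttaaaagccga

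CACGTG stood at positions -48 and -25 of the Clcn6 start and at -153 of the Clcn4 start (the match's first base, with -1 just before the start). It was in 2 of the 9 windows, against 7.15% of 32851 promoter windows of the same length. The wider class C site CACGNG was in 4 of the 9 windows, of Clcn3, Clcn4 at both starts and Clcn6, against 27.5% of all windows. The N-box CACNAG, whose letters overlap with CACGNG where a site reads CACGAG, was in 3 of 9, of Clcn3, Clcn4 and Clcn5, against 42.5%. TGTTTA was in both Clcn5 windows and in no window of the other genes searched, which leave out Bsnd, against 13.4% of all windows. The Clcn2 and Cftr windows held none of these letters. These are matches of letters, not bound sites.

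Total counts were 16973931 to 20420422 per library, of which the 7 genes took 11541 to 14534. Hes1 was read first because it checks the group names: it was at 17.2 to 19.8 CPM (counts scaled to library size with TMM factors) in Hes1 cKO and at 42.8 to 67.6 CPM in control, with a log2 fold change of -1.61 (edgeR adjusted p 0.00357). Xist, which marks the sex of an animal, was high in Hes1 cKO 3, control 3 and control 4 (333 to 367 CPM) and at most 0.371 CPM in the other 4 libraries. The labels title each sample as a separate mutant or wild type, and p-values measure the spread between these 7 libraries. In whole kidney RNA, fewer cells of a type and less RNA per cell cannot be told apart.

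None of the 7 genes passed the test. The quasi-likelihood test of edgeR, adjusted by Benjamini-Hochberg over 15615 tested genes, called 0 of the 7 at an adjusted p under 0.05, beside 0.339% of all tested genes (0.32% higher and 0.0192% lower in Hes1 cKO). All 7 passed the filter on low counts, and all 7 had an unadjusted edgeR p over 0.05, where 5.95% of all tested genes were under it. DESeq2's Wald test (0.833% of all genes called) and limma-voom (0.327%) also called 0 of 7, as did edgeR without the low-count filter (0.352%) or with an Xist covariate (0.423%). The CPM of the groups overlapped for each of the 7 genes, while they did not overlap for 7.01% of all tested genes. The log2 fold changes of the 7 genes had a median of 0.055, against -0.0064 over all tested genes; 5 were above 0 and 2 below.

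How strongly each gene was represented in the kidney was read per kb of transcript. Per kb of all annotated exons, Bsnd had the highest level, with a median over the 7 libraries of 36.9 CPM per kb (range 31.4 to 42.2). It was followed by Clcn5 (median 14.1), Clcn6 (13.1), Clcn3 (11.8), Clcn4 (9.87) and Clcn2 (7.44), and Cftr was lowest at 1.06 (range 0.788 to 1.88). No library of Clcn5 reached the lowest library of Bsnd, Clcn4 lay above Clcn2 without overlap and Clcn2 above Cftr without overlap, while the neighbours from Clcn5 down to Clcn4 overlapped. The order in between rests on the length used. With the longest protein-coding transcript as the length, 5684 in place of 17071 bases for Clcn3, that gene stood next to Bsnd at a median of 35.5 CPM per kb, and the ranges of Clcn3 and Bsnd overlapped. By median, Bsnd was the highest and Cftr the lowest with both lengths, but with the transcript length Bsnd was above Clcn3 in 3 of the 7 libraries.

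**Figure D1:**
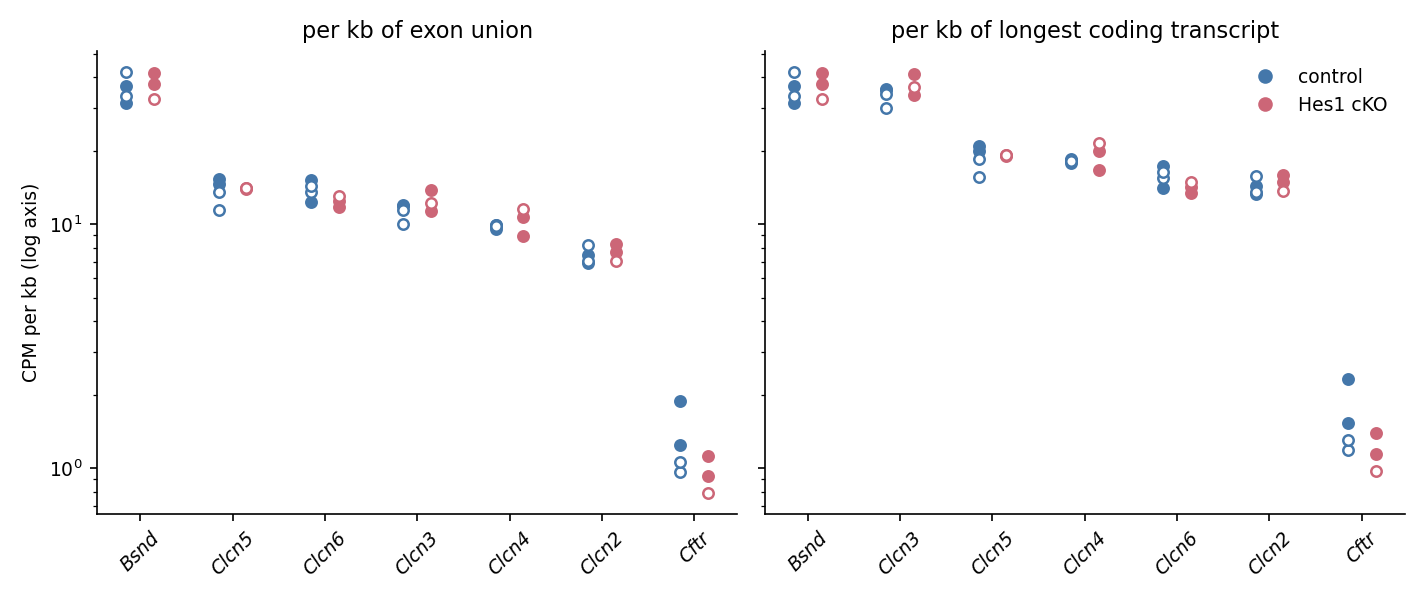
Level of the 7 genes in each library as CPM per kb on a log axis, per kb of all annotated exons (left) and of the longest protein-coding transcript (right), with genes ordered by median. Blue points are the 4 control and red points the 3 Hes1 cKO libraries, open where Xist is high; Bsnd has the highest and Cftr the lowest median in both, and Clcn3 moves up to a median of 35.5 CPM per kb at the right, among the points of Bsnd.

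Bsnd (ENSMUSG00000025418, GRCm38 chr4:106483456-106492283, minus strand) encodes barttin. In cKO libraries 1, 2 and 3 its level was 115, 104 and 90.1 CPM, and control libraries 1 to 4 had 102, 86.6, 116 and 92.1 CPM. The highest and the lowest of the 7 libraries were both controls, so the Hes1 cKO range lay inside the control range. Mean levels of 103 ± 12.5 CPM in cKO (SD, n = 3) and 99.2 ± 13.0 CPM in control (SD, n = 4) gave a log2 fold change of 0.055 (adjusted p 0.990 in edgeR, SE 0.12). The 95% interval from the edgeR fit ran from -0.22 to 0.33 on the log2 scale, that is from 0.858-fold to 1.26-fold.

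The barttin result was set beside markers of the cells known to hold it. The 12 intercalated cell markers, a list written with earlier results of these data known, all had a log2 fold change above 0. Their median log2 fold change was 1.31, and edgeR called 10 of them higher, beside 0.32% of all tested genes. Their summed level was 1595 to 1710 CPM in Hes1 cKO and 581 to 767 CPM in control. Foxi1, the transcription factor of intercalated cells, was at 108 to 134 CPM against 26.5 to 39.9 CPM. Bsnd had no such difference. Its log2(CPM + 1) minus the mean of the marker list was -0.076, -0.23 and -0.35 in cKO libraries 1, 2 and 3, whereas control libraries 1 to 4 had 1.38, 0.83, 1.15 and 0.84. The difference between the group means was -1.27 on the log2 scale. The markers' own difference was slightly larger: their mean was 6.91 in Hes1 cKO and 5.59 in control, 1.32 higher. Bsnd itself had a log2 fold change of 0.055, in the same direction. The list was written knowing that these genes were higher, so the difference is a description, with no test.

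Bsnd was also set against the thick ascending limb, where much barttin of the kidney is known to lie. The summed level of its 7 markers, among them Slc12a1 (the Na-K-Cl cotransporter) and Umod (uromodulin), was 4844 to 5494 CPM in Hes1 cKO and 4713 to 6021 CPM in control, with a median log2 fold change of -0.13. Of the 7 markers, 5 had a log2 fold change below 0 and 2 above, and edgeR called 0. An unadjusted edgeR p under 0.05 was found for 2 of them, both below 0, beside 5.95% of all tested genes. Bsnd minus the mean of these markers was -0.77, -0.83 and -1.01 in cKO libraries 1, 2 and 3, whereas control libraries 1 to 4 had -0.86, -1.13, -1.02 and -1.15. Hes1 cKO 1 and 2 were above every control, and Hes1 cKO 3 lay among them. The difference of the means was 0.17 (exact two-sided permutation p = 0.114), while the mean of the markers alone was 0.11 lower in Hes1 cKO (7.56 against 7.68). This list too was written with earlier results of these data known, so the p-value is a description.

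**Figure D2:**
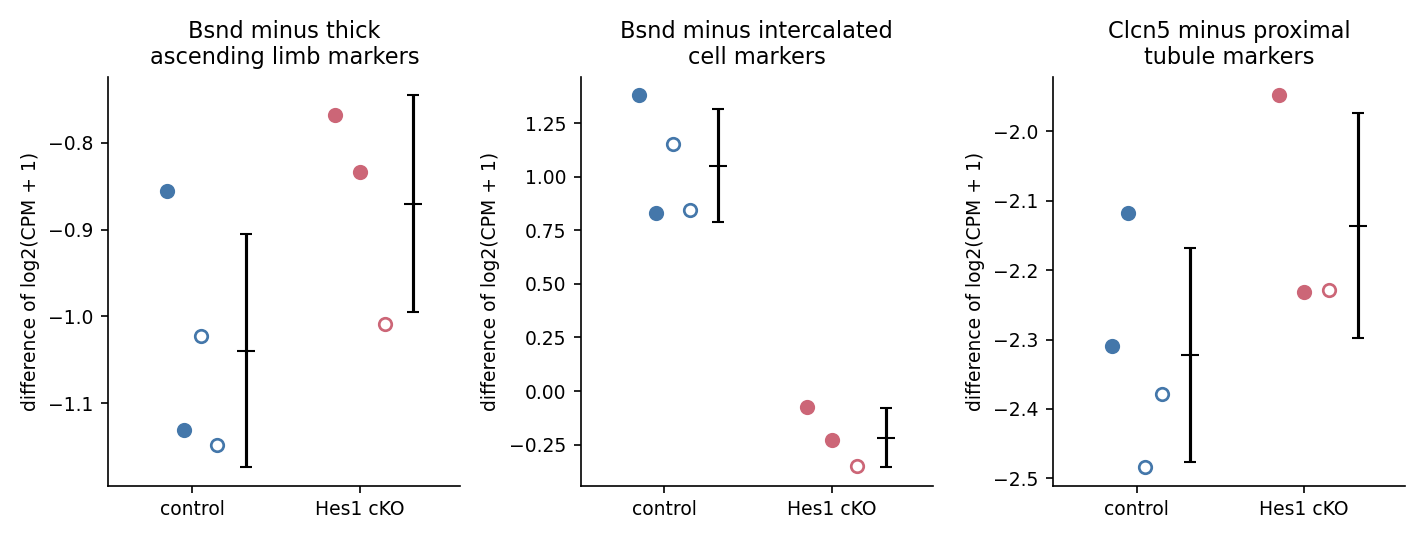
Difference of log2(CPM + 1) between a gene and the mean of a marker list in each library, for Bsnd against thick ascending limb markers, Bsnd against intercalated cell markers and Clcn5 against proximal tubule markers. Points are libraries (4 control, 3 Hes1 cKO, open where Xist is high) and bars are means ± SD. Only the middle panel shows groups that do not overlap, with every Hes1 cKO library below 0 and every control at 0.83 or above. The intercalated cell list was written knowing that its genes were higher, so this separation is a description.

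Clcn2 (ENSMUSG00000022843, chr16:20702964-20717746, minus strand) encodes ClC-2, a plasma membrane channel that opens on hyperpolarization. In cKO libraries 1, 2 and 3 its level was 46.4, 49.9 and 42.6 CPM, and control libraries 1 to 4 had 44.8, 41.6, 42.5 and 49.2 CPM. The groups covered nearly the same range. Its log2 fold change was 0.057 (adjusted p 0.982 in edgeR, SE 0.093), with a 95% interval from -0.15 to 0.27. Of its exon bases, 2.77% are shared with exons of Fam131a and Polr2h on the other strand, and no source used here says whether counting used strand.

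The exchangers ClC-3, ClC-4 and ClC-5 form one branch of the CLC family and work in endosomes, where chloride uptake goes with acidification by the proton pump. Clcn3 (ENSMUSG00000004319, chr8:60910389-60983300, minus strand) had the most counts of the 7 genes. In cKO libraries 1, 2 and 3 its level was 193, 235 and 208 CPM, and control libraries 1 to 4 had 202, 204, 170.2 and 195 CPM. Hes1 cKO 2 and 3 were above every control and Hes1 cKO 1 was below 3 of the 4. Mean levels of 212 ± 21.6 CPM in cKO (SD, n = 3) and 193 ± 15.6 CPM in control (SD, n = 4) gave a log2 fold change of 0.14 (adjusted p 0.942 in edgeR, SE 0.10, 95% interval -0.090 to 0.36). Without Hes1 cKO 2 the log2 fold change was 0.053, and without Hes1 cKO 1 it was 0.20.

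Clcn4 (ENSMUSG00000000605, chr7:7282309-7300851, minus strand) had 76.5, 92.0 and 98.8 CPM in cKO libraries 1, 2 and 3. In control it lay within 82.1 to 85.3 CPM, a spread of 1.36 CPM (SD, n = 4) against 11.4 CPM (SD, n = 3) in Hes1 cKO. Hes1 cKO 1 was thus below all 4 controls, and Hes1 cKO 2 and 3 above all of them. The log2 fold change was 0.085 (adjusted p 0.974 in edgeR, SE 0.095, 95% interval -0.13 to 0.30). It fell to 0.0039 without Hes1 cKO 3 and rose to 0.18 without Hes1 cKO 1. Exons of Gm45631 on the other strand share 11.5% of the exon bases of Clcn4.

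Clcn5 (ENSMUSG00000004317, chrX:7153810-7319358, minus strand) encodes ClC-5, the exchanger of proximal tubule endosomes whose loss in people causes Dent disease, and it is known from intercalated cells as well. The cKO libraries 1, 2 and 3 had 159.8, 161 and 161 CPM, an SD of 0.862 CPM. The control libraries 1 to 4 had 168, 176, 131 and 156 CPM, so that the controls lay on both sides of the Hes1 cKO libraries. The log2 fold change was 0.027 (adjusted p 0.992 in edgeR, SE 0.11), with a 95% interval from -0.21 to 0.26.

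Clcn5 was also set beside markers of the proximal tubule. The 8 markers, among them the endocytic receptors Lrp2 and Cubn that share the endosomes of ClC-5, summed to 8130 to 9133 CPM in Hes1 cKO and 8946 to 11127 CPM in control, with a median log2 fold change of -0.16. Clcn5 minus their mean was -1.95, -2.23 and -2.23 in cKO libraries 1, 2 and 3, whereas control libraries 1 to 4 had -2.31, -2.12, -2.48 and -2.38. Control 2 lay among the Hes1 cKO libraries. The difference of the means was 0.19 on the log2 scale (exact two-sided permutation p = 0.200), while the mean of the markers alone was 0.15 lower in Hes1 cKO (9.47 against 9.62). The proximal tubule list was also written with earlier results of these data known, so the p-value is a description.

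Clcn6 (ENSMUSG00000029016, chr4:148004259-148038821, minus strand) encodes ClC-6, an exchanger of late endosomes and the gene whose promoter, shown above, holds a pair of CACGTG matches. In cKO libraries 1, 2 and 3 its level was 73.8, 69.5 and 77.8 CPM, and control libraries 1 to 4 had 90.4, 73.4, 80.7 and 84.7 CPM. Control 2 was the 1 control inside the Hes1 cKO range. Mean levels of 73.7 ± 4.11 CPM in cKO (SD, n = 3) and 82.3 ± 7.15 CPM in control (SD, n = 4) gave a log2 fold change of -0.16 (adjusted p 0.932 in edgeR, SE 0.090, unadjusted 0.110), with a 95% interval from -0.36 to 0.044. Without control 2 the unadjusted edgeR p was 0.0393 and the adjusted p 0.799.

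Cftr (ENSMUSG00000041301, chr6:18170687-18322768, plus strand) had 104 to 254 counts per library, the fewest of the 7 genes, and the estimate farthest from 0. In cKO libraries 1, 2 and 3 its level was 8.73, 7.22 and 6.12 CPM, and control libraries 1 to 4 had 14.6, 9.64, 7.46 and 8.24 CPM. Control 1 was the highest and Hes1 cKO 3 the lowest, and Hes1 cKO 1 lay above controls 3 and 4. Mean levels of 7.35 ± 1.31 CPM in cKO (SD, n = 3) and 9.98 ± 3.19 CPM in control (SD, n = 4) gave a log2 fold change of -0.44 (adjusted p 0.927 in edgeR, SE 0.24, unadjusted 0.100). The 95% interval, from -0.98 to 0.10, was the widest of the 7 genes and spans 0.508-fold to 1.07-fold. Without control 1 the log2 fold change was -0.20, and without control 3 it was -0.55 (edgeR unadjusted p 0.0466, adjusted p 0.993). With all 7 libraries and no low-count filter, the edgeR unadjusted p was 0.0467 and the adjusted p 0.837.

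Cftr was also read by Xist level. In the 4 libraries with low Xist, Hes1 cKO was at 7.97 CPM on average (n = 2) and control at 12.1 CPM (n = 2); in the 3 libraries with high Xist, the 1 Hes1 cKO library was at 6.12 CPM and the 2 controls averaged 7.85 CPM. Hes1 cKO and control did not overlap in either set, but with 1 or 2 libraries a group this held for 35.2% of all tested genes in the low-Xist set and 67.7% in the high-Xist set, and for 4 and 6 of the 7 genes. With the Xist level as a covariate the log2 fold change was -0.51 (edgeR unadjusted p 0.0159, adjusted p 0.575), which does not pass over all genes. The 4 markers of urothelium and basal epithelium stand for other tissues that could carry Cftr into a whole kidney sample. They summed to 21.9 to 41.8 CPM in Hes1 cKO and 21.5 to 28.6 CPM in control. The highest sum was that of Hes1 cKO 1, while Hes1 cKO 2 and 3 (21.9 and 27.3 CPM) lay inside the control range. All 4 markers had a log2 fold change above 0, and edgeR called 0 of them, beside 0.339% of all tested genes. The part of these markers in the Cftr values was not tested.

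**Figure D3:**
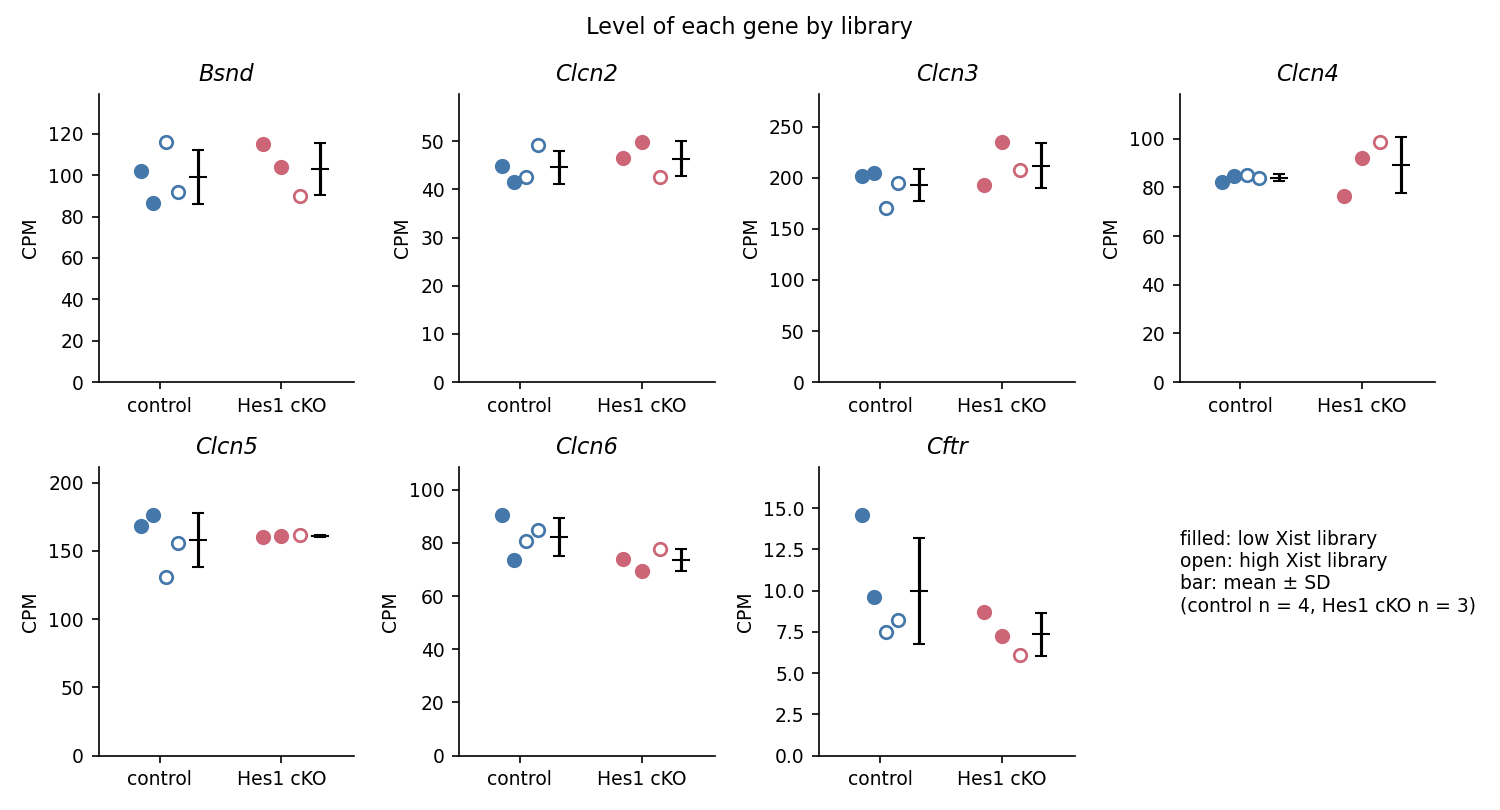
CPM of each gene in each library, with control in blue (n = 4) and Hes1 cKO in red (n = 3); open points are libraries with high Xist, and bars are means ± SD. Every panel starts at 0 and shows overlapping groups; the Clcn4 controls lie within 82.1 to 85.3 CPM and the Clcn5 Hes1 cKO libraries within 159.8 to 161 CPM, while Cftr spreads from 6.12 to 14.6 CPM.

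The other chloride transport genes were taken from a list of 42, of which 41 were in the table and 32 passed the filter on low counts. EdgeR called 0 of the 32 over all genes, beside 0.339% of all tested genes, and 4 had an unadjusted p under 0.05 (5.95% of all tested genes did), all with a log2 fold change above 0; limma-voom called 0. Their median log2 fold change was -0.0041, with 16 above 0 and 16 below. The CPM of the groups did not overlap for 5 of the 32, beside 7.01% of all tested genes. Of the lysosomal pair, the exchanger gene Clcn7 averaged 74.0 ± 5.49 CPM in cKO (SD, n = 3) and 66.9 ± 5.85 CPM in control (SD, n = 4), a log2 fold change of 0.15 (edgeR adjusted p 0.938), and its subunit gene Ostm1 had one of -0.043 (edgeR adjusted p 0.990).

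DESeq2's Wald test called 1 of the 32, the anion exchanger gene Slc26a7 (adjusted p 0.0223), which is named because of that call, after its values were seen. It is known from type A intercalated cells. The cKO libraries 1, 2 and 3 had 7.14, 9.15 and 7.12 CPM and the controls 4.13 to 5.24 CPM, without overlap. Its log2 fold change in edgeR was 0.78 (SE 0.17), with an adjusted p of 0.184, so the call rests on the tool.

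**Figure D4:**
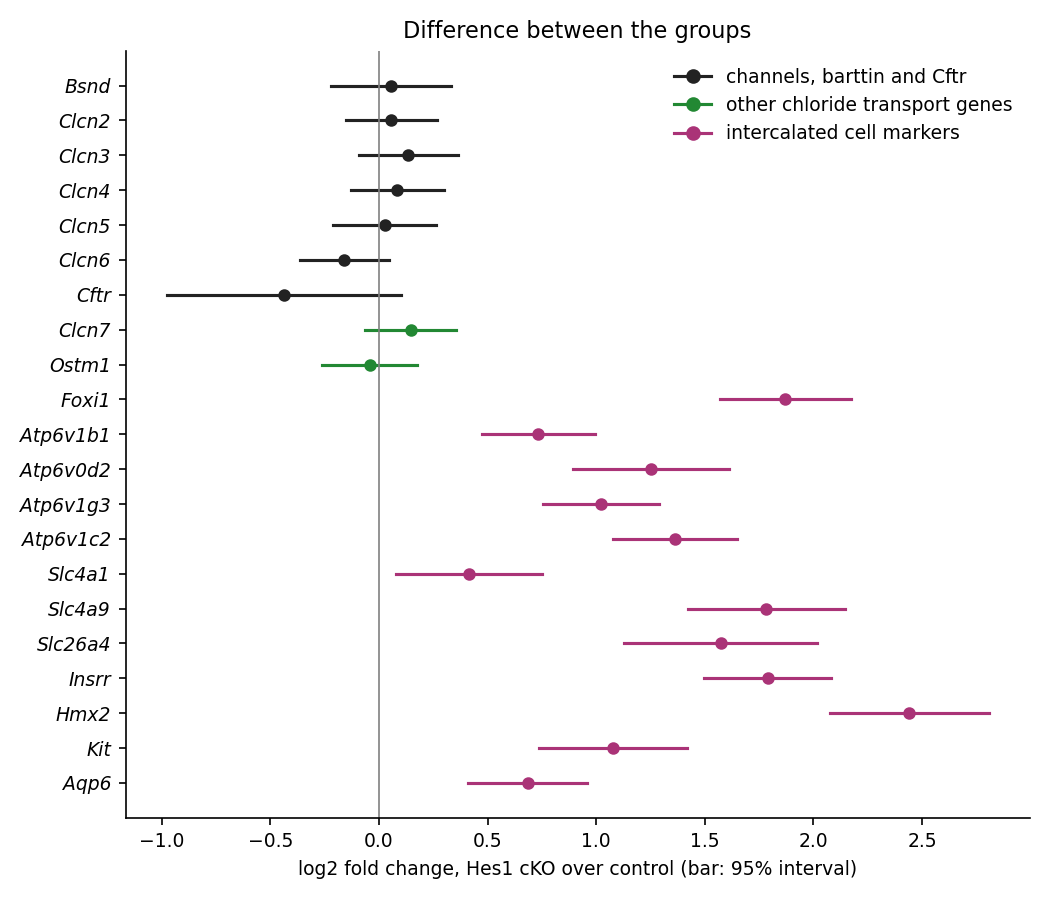
Log2 fold change of Hes1 cKO over control from edgeR (points) with 95% intervals (bars) for the 7 genes (black), 2 other chloride transport genes, Clcn7 and Ostm1 (green), and 12 intercalated cell markers (purple). The 7 black intervals all cover 0, from Cftr at -0.44 to Clcn3 at 0.14, and the 12 purple intervals all lie above 0. The purple genes were listed with earlier results of these data known.

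The genes whose levels ran most like those of Cftr, Clcn6 and Clcn3, the genes with the smallest unadjusted p of the 7, were named by Pearson correlation of log2(CPM + 1) over the 7 libraries among 14144 genes with a mean of at least 1 CPM. They were Sf3b3 (r = 0.987), Mllt11 (0.976) and Tmem178 (0.972) for Cftr, Pdzd11 (0.982), Hars2 (0.980) and Gamt (0.979) for Clcn6, and Rev1 (0.982), Urgcp (0.969) and Rufy3 (0.968) for Clcn3. None of these genes is a chloride transport gene of the list. All correlations share the same 7 libraries and their depth, and they are given as a description.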

How the data were processed

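The authors deposited whole-number read counts per gene with no normalization, per the file headers and values, in 2 tables. STAR, FastQC and DESeq2 and the builds mm10 and GRCm38 are named in the submitters' processing notes; no source used here names the counting program, its strand setting or the annotation. The first table, with 3 mutant and 4 wild type columns, was used; the 9 per-sample columns of the other table show no genotype and were not used in any step. The sample titles name 7 Hes1 cKO and 9 control kidneys, while the series text gives the sizes the other way round. Reads were 150 bp pairs, per the labels.

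The genes and gene lists were chosen with earlier results of these data known. Genes were filtered by filterByExpr (minimum count 10), scaled by TMM and tested in edgeR 4.0.16 (R 4.3.3) without a covariate, with Benjamini-Hochberg adjustment over 15615 genes; intervals use the fit's standard error and degrees of freedom. The fitting code was tested on simulated data. Alternatives used DESeq2 1.42.0, limma 3.58.1, other scalings and filters, an Xist covariate and each library left out. Single values were tested by exact permutation on log2(CPM + 1), with a pseudocount of 1. Named genes were the 7 members, Hes1, Clcn7, Ostm1, called genes of the chloride list, up to 3 markers a list, and 3 correlated genes for each of the 3 members with the smallest p; some genes of the rule are not reported here. Lengths and positions come from GENCODE M21 (GRCm38). Total counts of 16973931 to 20420422 set the counting error; reads carry no molecular identifiers, so it is the least error they can have. Marker lists of principal cells, distal convoluted tubule, podocytes, endothelium, stroma and immune cells were read as well.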

Additional observations from a re-analysis of the deposited data

How the results depend on the processing

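None of the 7 genes was called in any of the 14 alternatives (7 other settings and 7 fits that each left out 1 library). Their direction held in the 7 other settings. Leaving out 1 library turned Bsnd (log2 fold changes -0.034 to 0.14, below 0 without Hes1 cKO 1 or control 2), Clcn5 (-0.052 to 0.085, below 0 without control 3) and Ostm1 (-0.13 to 0.0069). For Cftr these fits ranged from -0.58 to -0.20 and for Clcn6 from -0.21 to -0.11. The count over all genes, 53, was 102 without a low-count filter, 130 by DESeq2 and 25 to 47 with 1 library left out, lowest without Hes1 cKO 2 (25) and Hes1 cKO 1 (27). The chloride transport list had 1 call by DESeq2 (Slc26a7) and 0 to 1 with a library left out (Clic6, lower, edgeR adjusted p 0.0373 without control 1). The difference of Bsnd minus intercalated cell markers, a description, ranged from -1.34 to -1.16 when a library was left out. No paired analysis was possible because the sample titles name no pairs or litters, and the columns carry no replicate number of the titled mice. Depth limits Cftr most, at 104 to 254 counts per library.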

Other observations

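The log2 ratio of Hes1 cKO to control had opposite signs in libraries with low and with high Xist for 3 of the 7 genes, Bsnd, Clcn2 and Clcn5, a division chosen after values had been seen. The share of all tested genes with opposite signs was not counted, so 3 of 7 cannot be read as a result about these genes. Among the 4 low-Xist libraries, Bsnd averaged 109 CPM in Hes1 cKO and 94.2 CPM in control; among the 3 high-Xist libraries it was at 90.1 CPM in the 1 Hes1 cKO library and averaged 104 CPM in the 2 controls. Clcn2 averaged 48.2 against 43.2 CPM in the low-Xist libraries and was at 42.6 against 45.9 CPM in the high-Xist libraries. Clcn5, which lies on the X chromosome, averaged 160.4 against 172 CPM in the low-Xist libraries and was at 161 against 143 CPM in the high-Xist libraries. With so few libraries the groups did not overlap for 35.2% of all tested genes in the low-Xist set and 67.7% in the high-Xist set. The interaction of genotype with the Xist level in edgeR gave a difference of log2 fold changes (high minus low Xist) of -0.43 for Bsnd (unadjusted p 0.104, adjusted p 0.999), -0.26 for Clcn2 (unadjusted p 0.209, adjusted p 0.999) and 0.27 for Clcn5 (unadjusted p 0.189, adjusted p 0.999), so none passed; 30 of 15615 genes did. Bsnd, Clcn2 and Clcn5 were singled out by the same values that this interaction uses. For Clcn3, Clcn4, Clcn6 and Cftr, whose signs were the same in both sets, the differences were 0.11, 0.21, 0.10 and 0.24. The high-Xist set holds 1 Hes1 cKO library, and the other properties of that library cannot be told apart from its Xist level.

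Marker lists of other cells were read in the same libraries. The summed level of the 8 tested principal cell markers was 765 to 1220 CPM in Hes1 cKO and 1245 to 1894 CPM in control. These sums did not overlap, but the mean log2(CPM + 1) of the markers did, with Hes1 cKO 3 (6.121) above control 2 (6.085). Aqp2 alone had 399 to 737 CPM against 682 to 1107 CPM, with overlap. Of the 8 markers, 7 had a log2 fold change below 0 and 1 above. The groups did not overlap for 3 of the 8, beside 7.01% of all tested genes. EdgeR called 1 of the 8 lower, beside 0.0192% of all tested genes. The summed level of the 6 distal convoluted tubule markers, whose cells also hold barttin, was 1087 to 1114 CPM against 1057 to 1362 CPM. Podocyte (419 to 478 against 454 to 540.2 CPM), endothelial (158 to 194 against 179.5 to 195 CPM), stromal (188 to 436 against 236 to 367 CPM) and immune markers (52.3 to 64.9 against 47.1 to 70.4 CPM) gave overlapping ranges. The part of these shifts in the values of the chloride genes was not tested.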
